A study of Sus scrofa with 6 samples.

Results

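The HOXA cluster of the pig held 6 of the 7566 lncRNAs in the deposited table. They are the lncRNAs that lie on chromosome 18 of assembly Sscrofa11.1 with their start and end between 45373340 and 45480306, a window of 107 kb that begins at the first base of HOXA13. All 6 were assembled from the reads rather than taken from the annotation. They were picked by position, within a window that was chosen with earlier results of these data known. Skin was taken to a depth of 8 mm from 3 unrelated female Bama pigs at an age of 2 years, with each pig giving a white sample (back) and a black sample (buttock), so that there were 3 white and 3 black samples. The replicate number is the number of the pig. No treatment or engineered allele is named in the labels. Skin color and body site differed together in every comparison and cannot be told apart.

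HOX genes encode transcription factors with a homeodomain that give cells their position along the body axis, and adult skin, its dermal fibroblasts above all, keeps a HOX pattern of the body site it came from. In mammals the HOXA genes stand in a row and are read in the same direction, with the anterior genes at one end and the posterior genes, up to HOXA13, at the other. Many noncoding RNAs start between HOX genes, often from the opposite strand, and some of them are known to act on the expression of their neighbours. The comparison of the skins asked which lncRNAs differ between a skin with melanocytes and a skin that lacks them.

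Of the 6 lncRNAs, 5 were on the minus strand and 1, TCONS_00049206, was on the plus strand. Of all 7566 lncRNAs, 3709 (49.0%) were on the minus strand. The strand of the HOXA genes is not part of the tables used here, so sense and antisense to a given gene are not stated. TCONS_00050567 spans 205 bp from 45414596 to 45414800 on the minus strand, in the gap between HOXA9, which is 3083 bp away, and HOXA7, which is 2336 bp away. The other 4 lncRNAs of the minus strand lie within the span that RefSeq gives HOXA3, from 45421542 to 45467803. TCONS_00050575 covers 2534 bp from 45440579 to 45443112 and ends 155 bp before HOXA4. TCONS_00050576, from 45443058 to 45443276, shares 55 bp with it and 9 bp with HOXA4. TCONS_00050578 runs from 45462251 to 45462833 and TCONS_00050579 from 45462251 to 45463441. These last members begin at the same position, and all 583 bp of TCONS_00050578 lie within the 1191 bp of TCONS_00050579. On the plus strand, TCONS_00049206 spans 237 bp from 45477192 to 45477428, 3846 bp beyond HOXA2.

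RefSeq places 6 lncRNA genes in the same window, and 3 of them overlap members. TCONS_00050567 shares 93 bp with LOC106506841, TCONS_00050578 and TCONS_00050579 each share 552 bp with LOC110257592, and TCONS_00049206 shares 225 bp with LOC106506838. Spans under 300 bp were given for 3 members, against a median span of 500 bp over all lncRNAs. The libraries were strand-specific, but whether strand was used when the values were calculated is not given in the sources used here. Reads of members that overlap each other or HOXA3 may therefore not be told apart. The map of the window shows that 4 members fall in the part between HOXA5 and HOXA2.

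**Figure D1:**
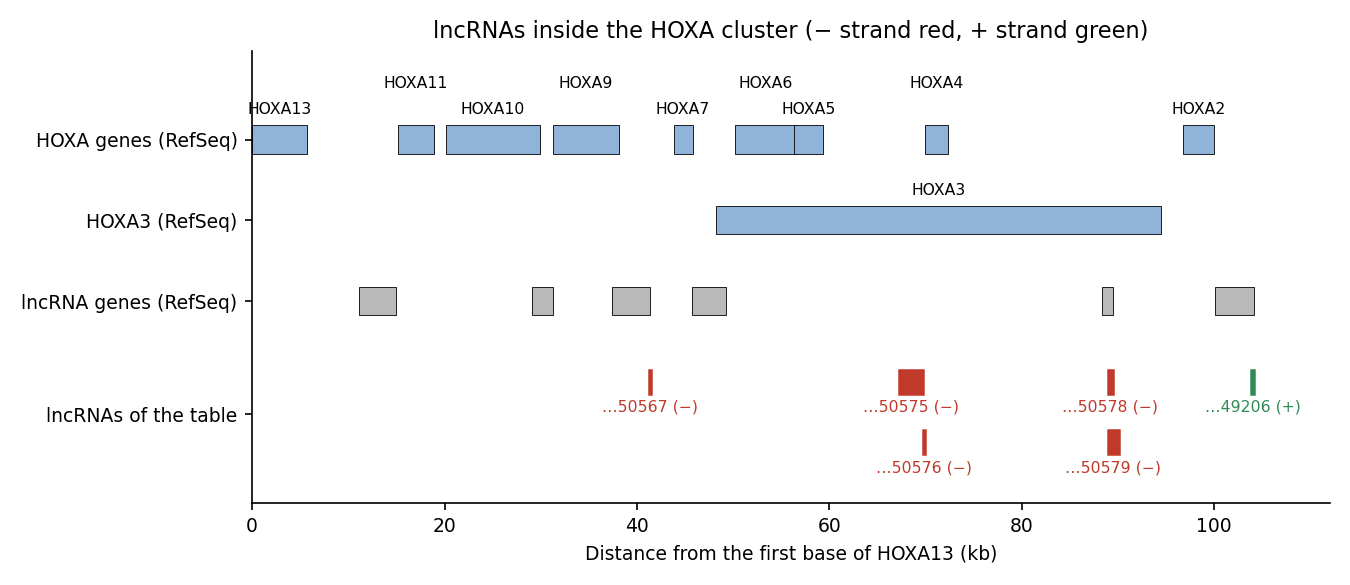
Map of the HOXA cluster by distance from the first base of HOXA13, in kb, with the HOXA genes and lncRNA genes of RefSeq above and the 6 lncRNAs of the deposited table below, where red marks the minus strand and green the plus strand. Of the 5 red lncRNAs, 4 lie under the long span of HOXA3, and the green TCONS_00049206 lies beyond HOXA2.

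The values are FPKM, fragment numbers scaled by transcript length and library size, as deposited. The log2FC between the skins, white minus black, was fitted by limma to log2(FPKM + 0.1), a scale that understates changes of transcripts with low FPKM. A lncRNA was called where its absolute log2FC exceeded 1 and its adjusted p (Benjamini-Hochberg) was under 0.05. Of all lncRNAs, 101 (1.33%) were called, 82 higher and 19 lower in white skin. With the pig as a block, 243 (3.21%) were called.

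None of the 6 HOXA lncRNAs was called by limma, with or without a term for the pig. Before adjustment, 1 of them had a p below 0.05, TCONS_00050579, beside 7.88% of all lncRNAs. With the block 2 did, TCONS_00050575 being added, beside 11.2% of all lncRNAs. The fitted log2FC was positive for 5 members and negative for 1, with a median of 0.67, beside -0.14 over all lncRNAs. Of the 5, TCONS_00050576 had a lower mean FPKM in white skin, so its direction depended on the scale. The skins did not overlap for 2 members, TCONS_00050579 with every white sample above every black sample and TCONS_00050567 with the reverse. Over all lncRNAs, every white sample was above every black sample for 6.87% and every black sample above every white sample for 5.31%. Of the 36 values of the members, 30 were above 0.1 FPKM. Listed at 0 in at least 1 sample were 2 members, beside 72.8% of all lncRNAs.

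TCONS_00050575, in the HOXA3 span just before HOXA4, had the highest level of the 6. Its FPKM was 4.73, 6.95 and 4.19 in white skin replicates 1, 2 and 3 and 1.14, 5.89 and 2.09 in black skin. White skin was higher in each of the 3 pigs, but black replicate 2 stood above white replicates 1 and 3, so the skins overlapped. White skin averaged 5.29 ± 1.46 FPKM (SD, n = 3) and black skin 3.04 ± 2.52, a 1.74-fold difference. The ratio of white to black skin was 4.16, 1.18 and 2.00 in pigs 1, 2 and 3. The log2FC of 1.06 (SE 0.62) was past the threshold for size, but the adjusted p was not (limma adjusted p = 0.691). Without black replicate 2 it was 1.68, with an adjusted p of 0.471 from limma, and without black replicate 1 it was 0.54. The mean over all 6 samples placed TCONS_00050575 above 97.4% of the lncRNAs, whose median was 0.254 FPKM.

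Only TCONS_00050567 and TCONS_00050576 had a lower mean FPKM in white skin. Of these, TCONS_00050567, the member between HOXA9 and HOXA7, alone had a lower fitted value. Its FPKM was 0.820, 1.01 and 0.864 in white skin replicates 1, 2 and 3, and 1.72, 3.52 and 1.48 in black skin. The white samples lay close together and the black samples all lay above them, which by itself puts black skin higher in 3 of 3 pigs. Black skin had 2.24 ± 1.11 FPKM (SD, n = 3) and white skin 0.899 ± 0.101, a 2.49-fold difference. With a log2FC of -1.13 (SE 0.68, limma adjusted p = 0.691), it was not called. Its mean level was above that of 92.1% of the lncRNAs.

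TCONS_00050579, the longer transcript of the pair near HOXA2, was listed at 0 FPKM in all 3 black samples and at 0.421, 0.623 and 1.12 in white skin replicates 1, 2 and 3. White and black skin therefore did not overlap. A listed 0 can be a transcript that was not estimated, so no fold is given. The fitted log2FC of 2.95 (SE 1.05, limma adjusted p = 0.243) rests on the pseudocount, with 6.08 at a pseudocount of 0.01 and 0.76 at 1. In the whole table, 85 lncRNAs were at 0 in every black sample and above 0.1 FPKM in every white sample, and 52 showed the reverse.

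TCONS_00050578, which shares its entire span with TCONS_00050579, was measured in every sample. Its FPKM was 0.711, 0.769 and 1.37 in white skin replicates 1, 2 and 3 and 0.565, 1.06 and 0.207 in black skin. White skin was higher in pigs 1 and 3 and lower in pig 2, and the skins overlapped. The white mean of 0.948 ± 0.362 FPKM (SD, n = 3) and the black mean of 0.611 ± 0.429 differed by less than the spread of the samples (log2FC 0.71, SE 0.79, limma adjusted p = 0.691). The log2FC was 0.20 without black replicate 3, 0.44 without white replicate 3 and 1.16 without black replicate 2. Because reads of the shared span can be given to either transcript, the FPKM of both were added. The sum was 1.13, 1.39 and 2.48 in white skin and 0.565, 1.06 and 0.207 in black skin, so that every white sample was above every black sample. Of this sum TCONS_00050579 held 37.2%, 44.8% and 45.0% in the white samples and 0 in the black samples. The log2FC of the sum was 1.44 (SE 0.74, limma adjusted p = 0.665), and it was not called. For TCONS_00050575 and TCONS_00050576, which also overlap, the sum gave a log2FC of 1.09 (SE 0.62, limma adjusted p = 0.691), and its skins overlapped. Both sums were chosen after values were seen.

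TCONS_00049206, beyond HOXA2 on the plus strand, had an FPKM of 0.565, 0.634 and 1.17 in white samples 1, 2 and 3 and of 0.533, 1.10 and 0.227 in black skin. The skins overlapped, with white skin higher in pigs 1 and 3. Its means were 0.791 ± 0.333 FPKM (SD, n = 3) and 0.620 ± 0.442, with a log2FC of 0.44 (SE 0.80, limma adjusted p = 0.810). The lncRNA at the start of HOXA4, TCONS_00050576, stood at 0.532, 0 and 0.927 FPKM in the white samples and at 0, 1.61 and 0 in the black samples. It was thus seen in pigs 1 and 3 in white skin alone and in pig 2 in black skin alone, with an adjusted p of 0.798 from limma for its log2FC of 0.64. Its mean FPKM went the other way, with 0.486 for the white samples and 0.537 for the black samples. The sign of this difference thus depended on the scale. Without black replicate 3 the log2FC of TCONS_00049206 and of TCONS_00050576 turned to just below 0. That of TCONS_00050576 also did without white replicate 3 or black replicate 1.

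**Figure D2:**
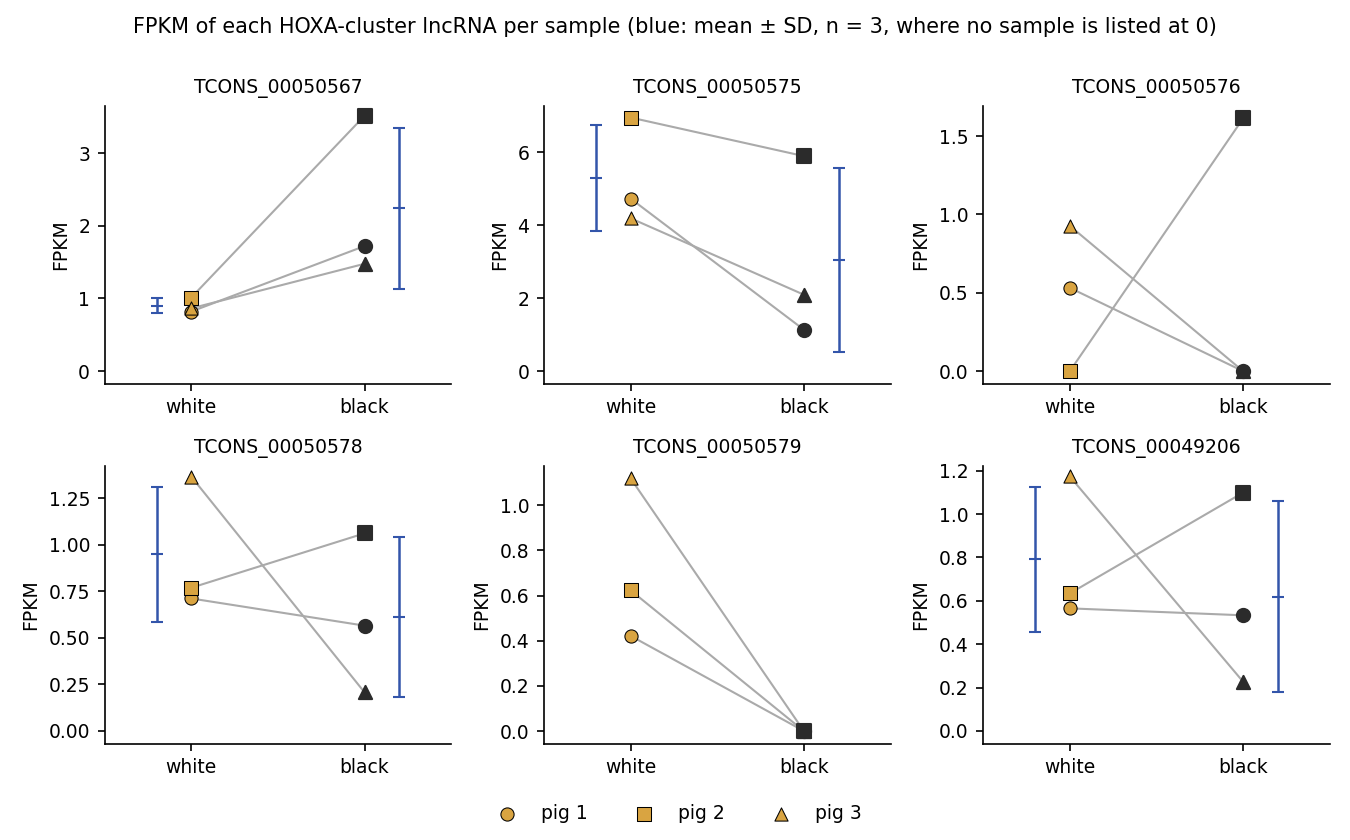
FPKM of each of the 6 lncRNAs in white and black skin, with a line joining the samples of a pig and blue bars for the mean ± SD (n = 3), left out where a sample is listed at 0. White and black points do not overlap for TCONS_00050567 and TCONS_00050579, and the square of black replicate 2 is the highest black point in 5 of the 6 panels.

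Ordered by mean FPKM over the samples, the members ran from TCONS_00050575 through TCONS_00050567, TCONS_00050578 and TCONS_00049206 to TCONS_00050576 and TCONS_00050579. In white skin the lowest value of TCONS_00050575, 4.19, was above the highest value of any other member, 1.37. In black skin its lowest value of 1.14 was below all values of TCONS_00050567, and these neighbours did not differ beyond their spread. In white skin the other 5 members overlapped one another. In black skin TCONS_00050567 was above every value of TCONS_00050578 and TCONS_00049206, and TCONS_00050579 was at 0. Summed over the 6 members, FPKM was 7.78, 9.99 and 9.64 in white skin replicates 1, 2 and 3 and 3.96, 13.2 and 4.01 in black skin. TCONS_00050575 made up 28.7% to 69.6% of this sum. Black replicate 2 was the highest black sample for all 5 members that had a value above 0 in black skin.

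TCONS_00050578 and TCONS_00049206 lie 14.4 kb apart on opposite strands and varied together over the samples. Pearson's r of their log2 values was 0.98 over the 6 samples, where both values of a sample come from the same library, and it is a description without p. The ratio of TCONS_00050578 to TCONS_00049206 was 1.26, 1.21 and 1.16 in white skin replicates 1, 2 and 3 and 1.06, 0.966 and 0.911 in black skin. Each level ranged widely between the samples, while their ratio kept to a narrow range from 0.911 to 1.26 and was higher in every white sample than in any black sample. This range holds for TCONS_00050578 alone, whose reads may be shared with TCONS_00050579. With both added, white skin had 1.13, 1.39 and 2.48 FPKM, against 0.565, 0.634 and 1.17 for TCONS_00049206, while the black values stayed the same. The narrow range thus depends on how reads were given to the overlapping transcripts.

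**Figure D3:**
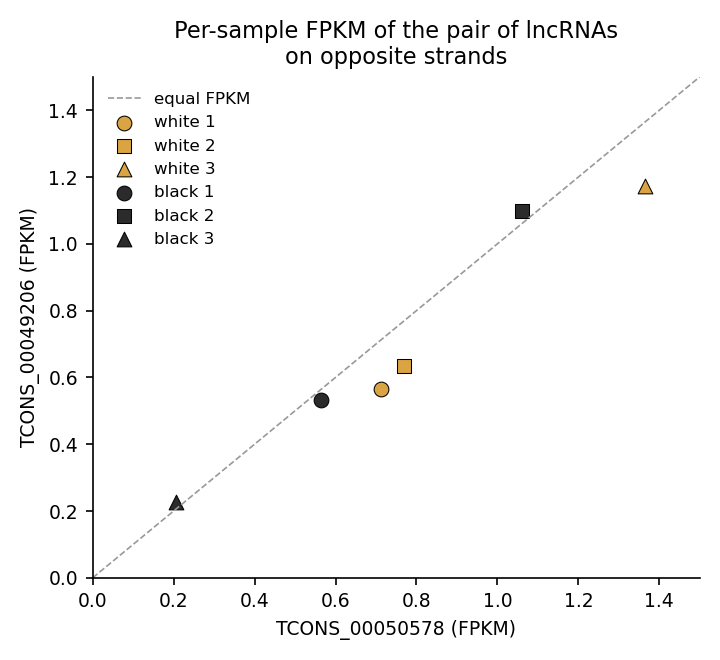
FPKM of TCONS_00049206 against FPKM of TCONS_00050578 in the 6 samples, with a dashed line of equal FPKM. The points run along the line from black replicate 3 at 0.207 and 0.227 to white replicate 3 at 1.37 and 1.17. The white samples and black replicate 1 lie below the line.

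The coding genes of the cluster were read from a limma fit over all 14900 mRNAs, on log2(FPKM + 0.5). Of 11 genes looked for, HOXA genes and EVX1, 8 were matched to an identifier. HOXA4, HOXA6 and EVX1 were not analysed here. Lower in white skin past both thresholds were 3 of the 8, HOXA9, HOXA10 and HOXA11, and 0 were higher, beside 3.62% of all mRNAs called lower and 2.62% called higher. With the pig as a block HOXA5 was added, which made 4, beside 6.42% of all mRNAs called lower. Every black sample was above every white sample for 6 of the 8, beside 25.7% of all mRNAs. HOXA3 is among the 6 by a near tie, with 0.794 FPKM in black replicate 1 against 0.793 in white replicate 1. Over all mRNAs the median log2FC was -0.31, and the 8 HOXA genes had a median of -1.23.

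Among the posterior genes, which pattern the trunk's end and the limbs, HOXA9 (ENSSSCG00000028997) had the highest level. Its FPKM was 5.66, 5.36 and 3.42 in white skin replicates 1, 2 and 3 and 21.9, 53.1 and 31.5 in black skin. All black samples stood far above the white samples, 7.38-fold on average, with a log2FC of -2.70 (SE 0.35, limma adjusted p = 0.0124). HOXA10 (ENSSSCG00000021204) had listed values of 0, 0.127 and 0.461 FPKM in the white samples and of 1.85, 5.86 and 7.82 in black skin (log2FC -2.90, SE 0.50, limma adjusted p = 0.0231). HOXA11 (ENSSSCG00000016698) was at 0.0437, 0 and 0.0832 in white skin and at 1.21, 1.21 and 2.46 in black skin (log2FC -1.92, SE 0.31, limma adjusted p = 0.0194). HOXA13 (ENSSSCG00000029666), the most posterior gene, had 0.00911 and 0.00872 FPKM in white replicates 1 and 3, with replicate 2 close to them. In black skin it had 0.268, 0.730 and 0.701, and it was not called (log2FC -1.03, limma adjusted p = 0.0675). The pseudocount of 0.5 shrinks the log2FC of genes with low FPKM, so these values do not rank the posterior genes. At a pseudocount of 0.1 the log2FC was -2.80 for HOXA9, -4.27 for HOXA10, -3.57 for HOXA11 and -2.52 for HOXA13. The calls of HOXA9, HOXA10 and HOXA11 were lost when white replicate 2 was left out (adjusted p of 0.0594, 0.105 and 0.0956 from limma), and HOXA10 and HOXA11 also lost theirs without white replicate 1 (0.0668 and 0.0604). HOXA10 lost it too without black replicate 2 or 3 (0.0738 and 0.0716).

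HOXA7, HOXA5, HOXA3 and HOXA2 were not called by limma, and 1 of them, HOXA5, had a p below 0.05 before adjustment. HOXA5 (ENSSSCG00000016703) had an FPKM of 3.34, 5.17 and 3.87 in white samples 1, 2 and 3 and of 7.05, 12.6 and 17.9 in black skin. Its skins did not overlap (log2FC -1.42, SE 0.36, limma adjusted p = 0.0551, and 0.0367 with the pig as a block). HOXA3 (ENSSSCG00000016705), the gene whose span holds 4 of the lncRNAs, had 0.793, 0.769 and 0.782 FPKM in white skin and 0.794, 1.86 and 1.23 in black skin (log2FC -0.44, limma adjusted p = 0.355). HOXA7 (ENSSSCG00000016701) and HOXA2 (ENSSSCG00000016706) overlapped between the skins, with log2FC values of 0.25 and -0.51 and adjusted p of 0.671 and 0.511 from limma. Fitted values were thus positive for 1 of these 8 HOXA genes and for 5 of the 6 lncRNAs, and no test of this difference was made. The median log2FC was -0.31 over all mRNAs and -0.14 over all lncRNAs. Among the 5 lncRNAs, TCONS_00050576 was lower in white skin by mean FPKM. Also, TCONS_00050575 overlaps TCONS_00050576 and TCONS_00050578 overlaps TCONS_00050579, so their reads may not be told apart.

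**Figure D4:**
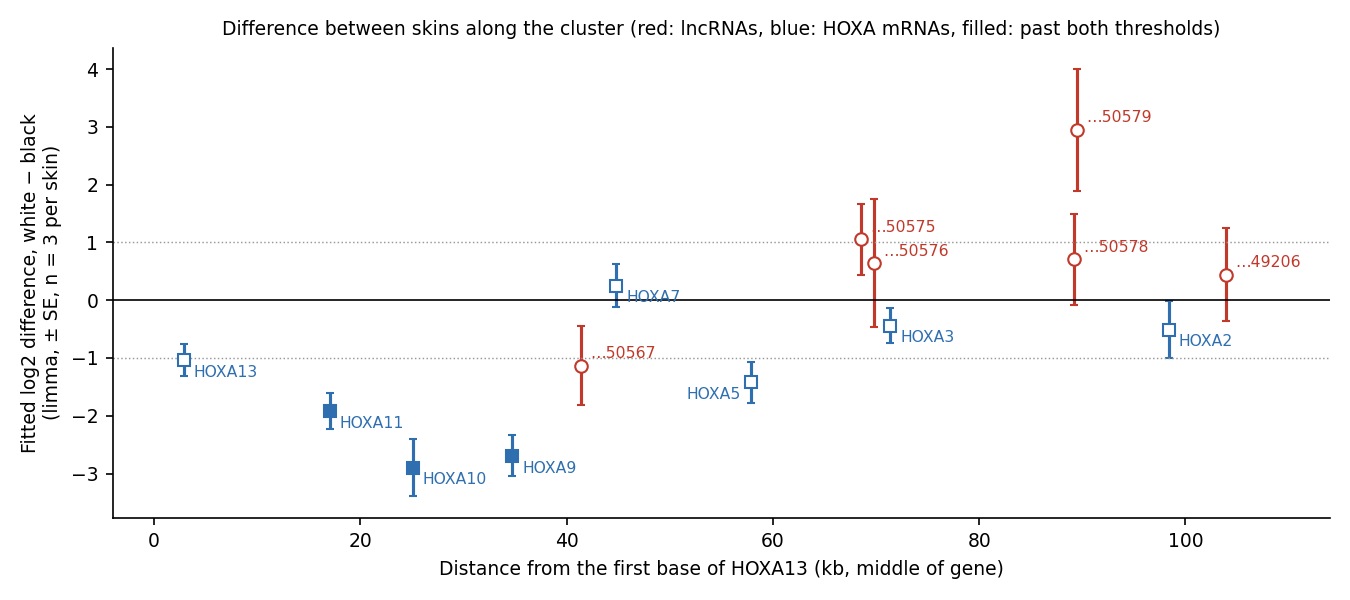
Fitted log2 difference, white minus black skin, ± SE from limma (n = 3 per skin) for the lncRNAs (red circles) and HOXA mRNAs (blue squares) by distance from the first base of HOXA13, in kb. The pseudocount was 0.1 for lncRNAs and 0.5 for mRNAs, so the heights of red and blue symbols are not directly comparable. Filled symbols mark HOXA9, HOXA10 and HOXA11, called lower in white skin, and the 5 lncRNAs beyond HOXA5 lie above 0.

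To compare lncRNAs with a neighbour in the same sample, the FPKM of TCONS_00050567, TCONS_00050575 and TCONS_00050578 was divided by that of the nearest HOXA gene with a value. TCONS_00050575 had 5.97, 9.04 and 5.36 times the FPKM of HOXA3 in white skin replicates 1, 2 and 3 and 1.43, 3.18 and 1.70 times in black skin. It was thus above HOXA3 in every sample, and more so in white skin. White skin had a mean log2 ratio of 2.73 ± 0.40 (SD, n = 3) and black skin one of 0.98 ± 0.61, a difference of 1.74 (exact permutation test, two-sided, p = 0.1). TCONS_00050578 had 0.897, 1.00 and 1.75 times the FPKM of HOXA3 in white skin and 0.712, 0.572 and 0.168 times in black skin, a log2 difference of 1.51 (exact permutation test, p = 0.1).

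For TCONS_00050567 the direction was the reverse, with 0.109, 0.123 and 0.215 times the FPKM of HOXA7 in white skin and 0.519, 0.482 and 0.253 times in black skin. The log2 ratio was lower in white skin by a difference of -1.49 (exact permutation test, p = 0.1). In each of these 3 ratios the skins did not overlap, which by itself makes the 3 pigs move the same way. How often this holds for other lncRNAs and their neighbours is not given here, and the ratios of TCONS_00050575 and TCONS_00050578 share HOXA3. A p of 0.1 is the smallest that 3 samples against 3 allow, and it stayed at 0.1 when adjusted over the 3 ratios. The FPKM of lncRNAs and mRNAs come from 2 tables whose median log2FC values were -0.14 and -0.31. The ratios were not recomputed under another normalization, and the part of such a shift in them was not tested.

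The ratios depended on which neighbour was used. As a choice made after the values were seen, the 4 members above 0 in all samples were also divided by the next HOXA gene with a value. TCONS_00050567 had 0.145, 0.189 and 0.253 times the FPKM of HOXA9, its neighbour on the other side, in white skin replicates 1, 2 and 3 and 0.0785, 0.0663 and 0.0470 times in black skin. White skin was thus higher in this ratio, by a log2 difference of 1.61 (exact permutation test, p = 0.1), where it was lower in the ratio to HOXA7. Over the 6 samples the log2 values of TCONS_00050567 and the 8 HOXA genes had a Pearson's r from 0.02 with HOXA7 to 0.91 with HOXA9, a description without p of values that share their libraries.

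TCONS_00049206 had 1.02, 1.82 and 5.92 times the FPKM of HOXA2 in white skin and 1.41, 0.490 and 0.904 times in black skin. The skins overlapped and pig 1 went the other way (log2 difference 1.38, exact permutation test, p = 0.2). The ratio of TCONS_00050578 to HOXA2 also overlapped between the skins, with a log2 difference of 1.69 (exact permutation test, p = 0.2), and that of TCONS_00050575 to HOXA5 did not, with a difference of 2.63 (p = 0.1). Over all 7 ratios the adjusted p was 0.14 for the 5 whose skins did not overlap and 0.2 for the other 2.

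**Figure D5:**
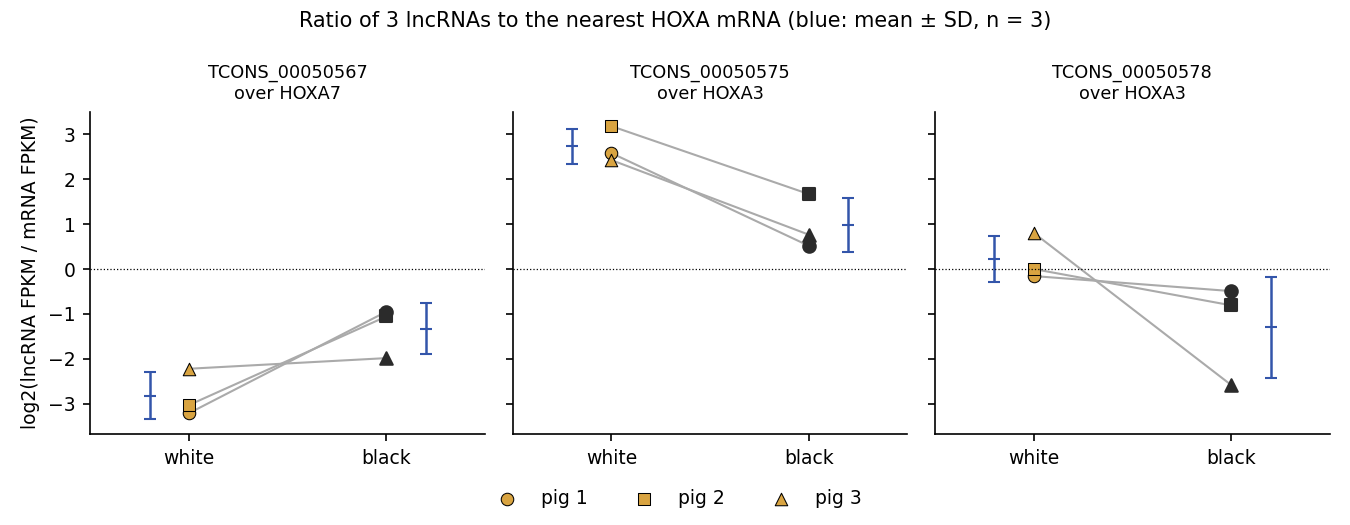
The log2 ratio of lncRNA FPKM to the FPKM of the nearest HOXA mRNA in white and black skin, with a line joining the samples of a pig and blue bars for the mean ± SD (n = 3). White points lie below black points for TCONS_00050567 over HOXA7 and above them for TCONS_00050575 and TCONS_00050578 over HOXA3, with mean differences of 1.74 and 1.51.

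Beyond the cluster, 3 of 6 coding genes within 500 kb were matched, leaving out EVX1, which lies 42.1 kb away and was counted with the HOXA genes. In all 3, every white sample was above every black sample, as for 9.62% of all mRNAs. HIBADH (ENSSSCG00000016695), an enzyme of valine breakdown, had an FPKM of 237, 228 and 102 in white samples 1, 2 and 3 and of 22.2, 21.3 and 30.8 in black skin. It was called higher in white skin (log2FC 2.83, SE 0.35, limma adjusted p = 0.0113). TAX1BP1 (ENSSSCG00000016692), an autophagy receptor, was called at a log2FC of 1.04 (limma adjusted p = 0.0470), and the call was lost with the pig as a block (0.0590), without the trend (0.0631), with quantile normalization (0.0696) and with any 1 of the 6 samples left out (0.0775 to 0.178). SKAP2 (ENSSSCG00000016708), an adaptor protein, was not called (log2FC 0.68, limma adjusted p = 0.127). A further 5 lncRNAs lay within 500 kb, all on the side away from HOXA13, the nearest 6.87 kb from the end of the window. By limma 0 of these 5 were called, 0 had a p below 0.05 before adjustment, and for all 5 the skins overlapped.

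The other HOX clusters held 2 lncRNAs in HOXB, 9 in HOXC and 2 in HOXD. Called by limma was 1 of them, TCONS_00080835 in HOXC, which was lower in white skin, and no other had a p below 0.05 before adjustment. The median log2FC was -1.06 in HOXC and 0.67 in HOXA, and the difference between the clusters was not tested. In HOXC 8 of the 9 lncRNAs were on the minus strand.

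For each member above 0.1 FPKM in at least 4 samples, the 3 named mRNAs and the 1 lncRNA with the most alike log2 values over the 6 samples were looked up among 10852 mRNAs and 6654 lncRNAs. Closest to TCONS_00050567 were FNIP2 (r = 0.992), SDE2 (0.989) and the amino acid transporter gene SLC38A5 (0.988), and the lncRNA TCONS_00013267 (0.991), an r that also holds the difference between the skins. TCONS_00013267 had 0, 0.0121 and 1.1e-05 FPKM in white skin replicates 1, 2 and 3, below the pseudocount. TCONS_00050575 was most like AFMID (0.989), an enzyme of tryptophan breakdown, CCDC149 (0.988) and the protease gene PRSS22 (0.986), and the lncRNA TCONS_00114851 (0.995), which was at 0 FPKM in black replicate 1. TCONS_00050578 and TCONS_00049206 each had the other as the most alike lncRNA, and both had GGA3, a sorting adaptor of the Golgi, as the closest mRNA (0.978 and 0.984). Next came NIF3L1 and the ribosomal protein gene RPL29 (0.976 each) for TCONS_00050578, and RNF141 and TMEM87A (0.957 each) for TCONS_00049206. With 6 samples and this many candidates, such values are descriptions and carry no p.

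The skins also differed in markers of their cell types. Summed over its markers, fat (4 of 4 found) ranged from 119.7 to 470.6 FPKM in white skin and from 756 to 1707 in black skin, with all 4 called lower in white skin. Fibroblast markers (7 of 8) ranged from 2280 to 4834 and from 6005 to 10326, with 2 called lower and 4 with the pig as a block. Melanocyte markers (6 of 6) ranged from 1.33 to 1.64 and from 30.3 to 160.7, with 5 called lower, and endothelial markers (2 of 3) from 24.0 to 29.2 and from 64.7 to 133, with 2 called lower. Leukocyte markers (3 of 3) ranged from 4.95 to 8.30 and from 12.9 to 35.1, with 1 called lower. Skeletal muscle markers (2 of 5) were at 29.8 to 66.4 and 1.41 to 5.01, with 1 called higher, and keratinocyte markers (3 of 5) at 57.2 to 635 and 265 to 461, with 0 called and 0 at p below 0.05 before adjustment. No marker found was at 0 in every sample, and the part of these cell types in the HOXA values was not tested. In bulk skin, fewer cells of a type and less RNA per cell cannot be told apart. The files give no read depth, and the FPKM of the samples summed to 408598 to 501424 over mRNAs and 8069 to 23095 over lncRNAs, where 1 lncRNA held 58.4% of white replicate 3.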

How the data were processed

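RNA-seq of poly(A) RNA was run on strand-specific libraries of 3 white and 3 black skin samples from 3 pigs. The deposited FPKM of lncRNAs and mRNAs were calculated by the authors with StringTie. The paper names TopHat as the aligner and the submitters' processing notes list HISAT2 2.0.4, StringTie 1.3.3, Cufflinks 2.2.1 and CASAVA 1.8.2. Transcripts were assembled and merged, and lncRNAs were filtered for coding potential. The authors kept lncRNAs above 0.1 and mRNAs above 0.5 FPKM in at least 1 sample. Counts were not among the files, the low values showed no step of 1 read shared between samples, and no counting interval is given, since the files alone leave depth unknown; read totals stated in the paper are not used here.

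Positions are those of the lncRNA file and of the RefSeq gene table for Sscrofa11.1. Of 14900 mRNAs, 12236 were named through a separate reference list of gene names and 183 more, HOXA13 among them, through the supplement of the paper. Both tables were fitted with limma 3.58.1 (R 4.3.3, trend option, Benjamini-Hochberg adjustment over the whole table) without a term for the pig, which entered as a block in an alternative. The samples are paired by the pig number in their titles, and the deviations of a pig's samples from their group means correlated in pigs 1, 2 and 3 with an r of 0.101, 0.148 and 0.132 across lncRNAs and 0.208, 0.360 and 0.204 across mRNAs. Ratios were tested with an exact permutation test in Python 3.11.15 with SciPy 1.17.1. The fit was tested on simulated data.

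The members and gene lists were chosen with earlier results of these data known. Named are the 6 members, the HOXA, EVX1 and flanking coding genes, and the most alike transcripts of each member; TCONS_00080835 was named after its values were seen. Markers were DCN, LUM, COL1A1, COL1A2, COL3A1, PDGFRA, FBLN1 and THY1 (fibroblast), KRT5, KRT14, KRT1, KRT10 and TP63 (keratinocyte), PMEL, TYRP1, MLANA, DCT, TRPM1 and SOX10 (melanocyte), PECAM1, CDH5 and VWF (endothelium), ACTA1, CKM, MYH1, MYH2 and MYH7 (skeletal muscle), ADIPOQ, PLIN1, LEP and FABP4 (fat) and PTPRC, CD68 and CD3E (leukocyte). Alternatives were other pseudocounts, the block, upper-quartile scaling, quantile normalization, no trend, p before adjustment, filters on mean FPKM (0.1 for lncRNAs, 1 for mRNAs) and leaving out each sample. Transcript sequences, exons and read counts were not analysed here, and 1 further coding gene of the cluster is not reported here.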

Additional observations from a re-analysis of the deposited data

How the results depend on the processing

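Over the 6 HOXA lncRNAs, 80 alternative values of the log2FC were computed, of which 76 kept their direction, 4 reversed and 0 passed both thresholds. The block, the fit without the trend and the filter cannot change a log2FC, so their values kept the direction by construction. Leaving out a sample also could not reverse the order of the group means of TCONS_00050567 and TCONS_00050579, whose skins did not overlap. The reversals came with 1 sample left out. The log2FC of TCONS_00050576 was then -0.04 to 2.01, below 0 without white replicate 3 (-0.036) or black replicate 1 or 3 (-0.042 each). TCONS_00049206 ranged from -0.03 to 0.91 (-0.030 without black replicate 3), HOXA7 from -0.04 to 0.55 (-0.042 without black replicate 1) and HOXA2 from -0.86 to 0.07 (0.074 without black replicate 2). The count of called members was 1 with p before adjustment and 0 in each other alternative. The count of called lncRNAs, 101, was 31 with a pseudocount of 0.01, 19 with a pseudocount of 1, 12 without the trend, 596 with p before adjustment, 243 with the pig as a block, the 101 included, and 0 to 5 with a sample left out. The count of called mRNAs, 930, was 1439 with the pig as a block, 2288 with p before adjustment and 35 to 847 with a sample left out, lowest without white replicate 2. Quantile normalization gave 217 mRNAs lower and 483 higher in white skin and upper-quartile scaling 292 and 546, against 539 and 391 as deposited, and moved the median of all mRNAs from -0.31 to -0.03 and -0.13. The signs of the 8 HOXA genes and the calls of HOXA9, HOXA10 and HOXA11 held under both. The call in HOXC was lost with any sample left out, to a count of 0. The 3 ratios to the nearest HOXA gene kept their direction with a pseudocount of 0.1. With a sample left out they could not reverse, since their skins did not overlap. Their differences were then from -1.81 to -1.29 for TCONS_00050567 and from 0.86 to 2.09 for the others, the lowest without black replicate 3. The exact sign-flip test within pigs gave p = 0.25 for each, the smallest it allows. With the next HOXA gene in place of the nearest, TCONS_00050567 reversed to 1.61. HIBADH lost its call without white replicate 2 (limma adjusted p = 0.0574), and HOXA5 and HOXA13 passed without black replicate 1 (0.0364 and 0.0372), HOXA13 also with a pseudocount of 0.1 (0.0475). Apart from HOXA5 and TAX1BP1, the block changed no call among the HOXA and flanking genes. The cause of these changes was not tested, beyond the fewer samples where 1 is left out.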
